A study of Mus musculus with 23 samples.

Results

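The 10 genes described here, *Opa1*, *Mfn1*, *Mfn2*, *Dnm1l*, *Fis1*, *Mff*, *Oma1*, *Yme1l1*, *Immt* and *Phb*, encode the core proteins that fuse and divide mitochondria and shape their inner membrane. They were chosen by name and not by a rule on their values, though with earlier results of these data known. They are 10 of the 37310 genes counted in each RNA-seq library. The study asked what the transcription factor Zbtb11 does in mouse embryonic stem cells (ESCs) of the E14 line. RNA-seq was carried out in 3 biological replicates of each of 3 groups after 48 h. The EtOH control was a Zbtb11 lox/lox line, in which exon 3 of Zbtb11 is flanked by loxP sites and ERt2-Cre is inserted at *Rosa26*, given only ethanol. The Zbtb11 KO group was the same line given 250 nM 4-hydroxytamoxifen (4OHT), which turns on ERt2-Cre. The 4OHT control was the unedited line, Zbtb11 WT/WT and *Rosa26* WT, given 250 nM 4OHT. As 4OHT was dissolved in ethanol, all groups received the solvent. The floxed cells are a homozygous line isolated in culture and the 4OHT control is another line, so the effect of 4OHT and the difference between the lines cannot be told apart when the 4OHT control is set against the EtOH control. Zbtb11 KO and the 4OHT control both received 4OHT, and there the deletion of Zbtb11 and the difference between the lines cannot be told apart. Zbtb11 KO and the EtOH control are of the same line, but differ in 4OHT as well as in the deletion. ChIP-seq was carried out with an antibody to Zbtb11 in E14 WT cells (4 libraries) and with an antibody to the FLAG tag in Zbtb11 FLAG/FLAG cells (3 libraries), in which endogenous Zbtb11 carries the tag, with FLAG ChIP in untagged cells as the control (2 libraries).

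Mitochondria form a network that is continuously joined and cut. *Mfn1* and *Mfn2* are GTPases that fuse the outer membranes, and *Opa1*, a GTPase of the inner membrane, fuses the inner membranes and holds the cristae tight. *Dnm1l*, better known as Drp1, is the cytosolic GTPase that constricts mitochondria, and *Mff* and *Fis1* are outer membrane proteins linked to its recruitment. The inner membrane proteases *Oma1* and *Yme1l1* cut *Opa1* into its short forms. *Immt*, or mitofilin, is the central subunit of the MICOS complex at the cristae junctions, and *Phb* forms with *Phb2* the prohibitin ring that scaffolds inner membrane proteins. Much of this control acts on the proteins, by cleavage, phosphorylation and recruitment, which RNA-seq does not measure.

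Counts on genes ranged from 14301457 to 23876604 per library. Replicate 1 stood apart in every group. The root mean square difference of log2 expression between it and another replicate of its group was 0.444 to 0.600, against 0.232 to 0.289 between replicates 2 and 3. Each comparison was therefore tested on replicates 2 and 3 (14172 genes, 2 libraries per group), and the same test on all 3 replicates (14346 genes) is given beside it. The deletion itself could not be followed in the counts, because the annotation holds the Zbtb11 transcript within the row of *Rpl24*. That joint row had 6811 to 8728 raw counts in the EtOH control, 6236 to 7380 in Zbtb11 KO and 5408 to 8596 in the 4OHT control. These ranges are not scaled for depth and cannot be compared directly. Counts on all genes were 18872759 to 23876604 in the EtOH control, 16644385 to 20416692 in Zbtb11 KO and 14301457 to 23100544 in the 4OHT control. Of 8 ESC markers, 7 had a row, and their summed level was 2992 to 3479 CPM, counts scaled to the effective library size, over all libraries. The summed level of 5 fibroblast markers was 17.8 to 28.5 CPM, with *Postn* at or near 0, and that of 7 early lineage markers 13.4 to 23.1 CPM. The groups overlapped in each of these sums. Of the single markers, 3 separated the 4OHT control from all other libraries. The ESC marker *Dppa3* was lower there (13.7 to 19.8 CPM against 45.8 to 53.6 CPM), the ESC marker *Klf4* higher (300.3 to 391 CPM against 212 to 290.3 CPM) and the fibroblast marker *Col1a2* lower (0.666 to 1.03 CPM against 2.23 to 3.78 CPM). Such separation was common. Of 14346 genes, 21.7% separated the 4OHT control from the EtOH control and 22.9% separated it from Zbtb11 KO. The share separated from both at once was not counted.

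The promoters of 4 of the genes are shown because they mark the extremes of coverage with the Zbtb11 antibody. The peaks at the starts of *Opa1* and *Phb* had the highest antibody coverage among the 6 genes with a coverage value, although with FLAG-Zbtb11 the *Phb* peak was below those of *Yme1l1* and *Oma1*, and no Zbtb11 peak was found near the starts of *Mfn1* and *Mfn2*. Each sequence runs from 250 bases before to 50 bases after the annotated gene start, 5′ to 3′ on the strand of the gene, in the mm9 build that the study used. Capitals mark exact matches to CCGGAAG, a form of the letters bound by ETS factors such as GABP (also called NRF-2). They also mark GCGC, any base and TGCGC in a row, a form of the letters bound by NRF1. Looser forms of either were not searched. Both factors are textbook regulators of nuclear genes for mitochondria.

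Opa1 promoter, chr16:29579170-29579469, plus strand: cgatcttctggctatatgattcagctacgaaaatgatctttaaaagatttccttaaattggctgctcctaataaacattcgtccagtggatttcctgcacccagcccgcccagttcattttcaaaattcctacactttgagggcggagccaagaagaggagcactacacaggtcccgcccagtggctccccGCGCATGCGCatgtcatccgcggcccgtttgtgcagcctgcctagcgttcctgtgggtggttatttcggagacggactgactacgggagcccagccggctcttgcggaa

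Phb promoter, chr11:95528021-95528320, plus strand: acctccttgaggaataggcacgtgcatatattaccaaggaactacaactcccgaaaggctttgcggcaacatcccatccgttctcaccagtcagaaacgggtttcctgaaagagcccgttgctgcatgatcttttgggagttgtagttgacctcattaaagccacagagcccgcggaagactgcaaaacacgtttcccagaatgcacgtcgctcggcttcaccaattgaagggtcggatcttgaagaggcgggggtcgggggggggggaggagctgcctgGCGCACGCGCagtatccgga

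Mfn1 promoter, chr3:32428137-32428436, plus strand: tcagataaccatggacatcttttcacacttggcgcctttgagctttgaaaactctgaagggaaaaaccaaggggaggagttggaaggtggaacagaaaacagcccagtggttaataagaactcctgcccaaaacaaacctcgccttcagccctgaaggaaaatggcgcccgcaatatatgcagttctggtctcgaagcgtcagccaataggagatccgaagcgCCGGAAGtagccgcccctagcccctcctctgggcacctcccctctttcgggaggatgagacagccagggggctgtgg

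Mfn2 promoter, chr4:147278764-147279063, minus strand: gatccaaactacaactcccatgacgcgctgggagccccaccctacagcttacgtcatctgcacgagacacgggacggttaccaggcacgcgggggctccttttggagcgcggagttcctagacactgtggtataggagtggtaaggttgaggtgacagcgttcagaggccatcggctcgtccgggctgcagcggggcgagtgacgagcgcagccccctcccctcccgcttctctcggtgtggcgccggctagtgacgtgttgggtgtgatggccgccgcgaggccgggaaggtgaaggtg

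*Opa1* held a single NRF1 match, which reads the same on both strands and begins 59 bases before the start. *Phb* held 1 on the opposite strand, 31 bases into the gene, with no CCGGAAG in this window. *Mfn1* held CCGGAAG 27 bases before its start, and *Mfn2* held neither. Among all 10 promoters, 3 held CCGGAAG on either strand (*Mfn1*, *Fis1* and *Immt*) and 4 held the NRF1 letters (*Opa1*, *Oma1*, *Immt* and *Phb*). The same windows of the 14172 tested genes held them in 15.8% and 9.05% of cases. No CCGGAAG match overlapped an NRF1 match in these promoters. A match of letters is a description and does not show that a factor was bound. Nor does the lack of an exact match show that no site for the factor is present.

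All 10 genes were expressed well above the filter of 1 CPM in every library. Levels of different genes were compared per length, as RPKM, which divides the CPM by the exon length in kilobases. In the EtOH control the prohibitin *Phb* (57.9 ± 8.95 RPKM, SD, n = 3) and the MICOS subunit *Immt* (57.0 ± 6.80 RPKM) stood at the top and did not differ beyond their spread. They were followed by *Dnm1l* (41.1 ± 0.278 RPKM) and *Yme1l1* (38.1 ± 3.24 RPKM). The next levels were those of *Fis1* (17.3 ± 2.13 RPKM), *Opa1* (15.1 ± 0.412 RPKM), *Mff* (12.2 ± 0.524 RPKM) and *Mfn1* (10.6 ± 1.44 RPKM). The lowest were *Mfn2* (7.16 ± 1.37 RPKM) and *Oma1* (6.37 ± 0.648 RPKM). Besides the top pair, the neighbours *Mff* and *Mfn1* and the neighbours *Mfn2* and *Oma1* had overlapping ranges, and the other neighbours in this order did not overlap. The fusion GTPases of the outer membrane were thus measured at lower levels than *Opa1*, and all of these below the fission GTPase *Dnm1l*. Because gene length was taken over all annotated exons, a gene whose cells use short transcripts can be placed too low on this scale.

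**Figure D1:**
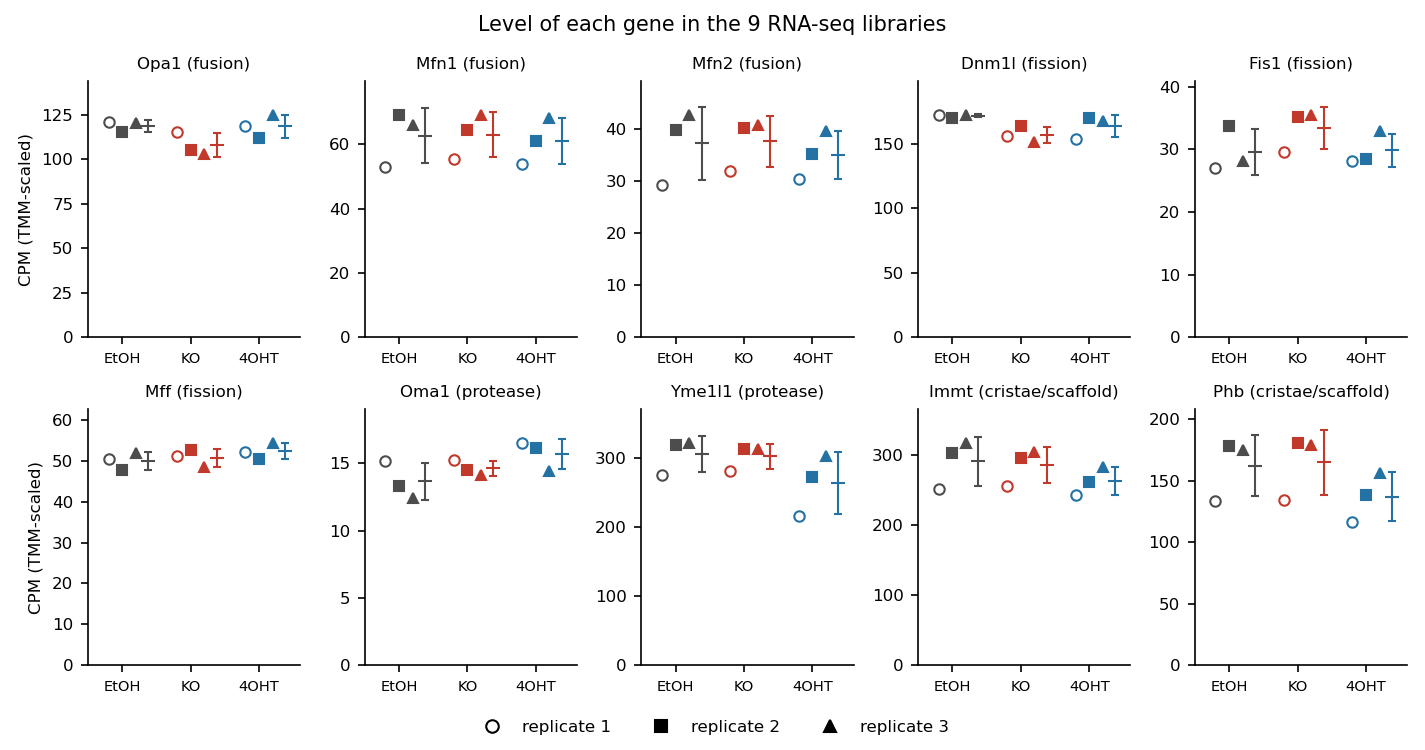
Level of each gene in CPM (vertical axis, from 0) in the 9 libraries, grouped along the horizontal axis as EtOH control, Zbtb11 KO and 4OHT control. Open circles are replicate 1, squares replicate 2 and triangles replicate 3, and the bars beside them are the mean and SD of 3 libraries. Phb lies between 116 and 181 CPM, with its replicate 1 lowest in each group, while Opa1 stays between 103 and 125 CPM.

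*Opa1*, the inner membrane fusion GTPase, was measured at 121, 115 and 120 CPM in replicates 1, 2 and 3 of the EtOH control. It stood at 116, 106 and 103 CPM in Zbtb11 KO and at 119, 112 and 125 CPM in the 4OHT control. The KO library was the lower in each of the 3 replicate numbers, but the KO and EtOH ranges met at their edges. On the log2 scale *Opa1* differed by -0.17 ± 0.07 (SE) between Zbtb11 KO and the EtOH control, with a 95% interval of -0.33 to -0.02. This did not pass the threshold (edgeR adjusted p = 0.682), and with all 3 replicates the difference was -0.14 (edgeR adjusted p = 1.0). Against the 4OHT control it was -0.19 (interval -0.34 to -0.03, edgeR adjusted p = 0.0896). With the replicate block on replicates 2 and 3 this difference was called (-0.19, edgeR adjusted p = 0.0316), and with the block on all 3 replicates it was not (-0.13, edgeR adjusted p = 0.0635).

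*Mfn1*, a fusion GTPase of the outer membrane, had 53.0, 69.0 and 66.0 CPM in the EtOH control, 55.4, 64.4 and 69.1 CPM in Zbtb11 KO and 53.7, 61.1 and 68.2 CPM in the 4OHT control. Its relative *Mfn2* had 29.2, 39.7 and 42.7 CPM in the EtOH control, 31.9, 40.2 and 40.7 CPM in Zbtb11 KO and 30.3, 35.2 and 39.6 CPM in the 4OHT control. In both genes replicate 1 was the lowest library of every group and the groups overlapped throughout. Between Zbtb11 KO and the EtOH control the log2 difference was -0.02 for *Mfn1* (interval -0.19 to 0.15) and -0.03 for *Mfn2* (interval -0.21 to 0.16).

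The fission GTPase *Dnm1l* was the only gene of the 10 whose 3 KO libraries all lay below the 3 EtOH libraries. Its levels were 173, 171 and 173 CPM in the EtOH control, 156, 164 and 152 CPM in Zbtb11 KO and 154, 170.1 and 168 CPM in the 4OHT control. The 4OHT control did not overlap the EtOH control either, although the highest value of the former and the lowest of the latter (170.6 CPM) nearly touched. Such a separation of groups was seen in 7.21% of 14346 genes for Zbtb11 KO against the EtOH control and in 21.7% for the 4OHT control against the EtOH control. The log2 difference between Zbtb11 KO and the EtOH control was -0.12 (interval -0.27 to 0.02, edgeR adjusted p = 0.876) and did not pass the threshold.

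*Fis1*, an outer membrane protein of the fission machinery, had 27.0, 33.8 and 28.1 CPM in the EtOH control, 29.6, 35.2 and 35.5 CPM in Zbtb11 KO and 28.1, 28.5 and 32.9 CPM in the 4OHT control. The KO library was the higher in each replicate number, within overlapping ranges. This gene had the largest KO difference in size, 0.19 on the log2 scale, but also a wide interval of -0.04 to 0.42 (edgeR adjusted p = 0.882). *Mff*, the receptor of *Dnm1l*, had 50.5, 47.7 and 51.9 CPM in the EtOH control, 51.2, 52.8 and 48.4 CPM in Zbtb11 KO and 52.3, 50.6 and 54.5 CPM in the 4OHT control, with overlapping groups. Its log2 difference between Zbtb11 KO and the EtOH control was 0.02 (interval -0.16 to 0.20). *Mff* shares 195 exonic bases with the antisense transcript *C430014B12Rik*, which had 30 counts over all libraries against 9258 for *Mff*.

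*Oma1*, the stress-activated protease that cleaves *Opa1*, was the least expressed of the genes by count, with 241 to 357 reads per library. It had 15.2, 13.3 and 12.4 CPM in the EtOH control, 15.3, 14.5 and 14.1 CPM in Zbtb11 KO and 16.5, 16.1 and 14.4 CPM in the 4OHT control. Both groups given 4OHT were higher than the EtOH control in every replicate number, yet the ranges overlapped. The log2 differences were 0.15 (interval -0.11 to 0.40) for Zbtb11 KO and 0.25 (interval -0.01 to 0.50) for the 4OHT control, each against the EtOH control.

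*Yme1l1*, the constitutive protease acting on *Opa1*, had 275, 319 and 322 CPM in the EtOH control and 281, 313 and 312 CPM in Zbtb11 KO. In the 4OHT control it had 215, 272 and 303 CPM, lower in every replicate number. Zbtb11 KO and EtOH control differed by -0.04 on the log2 scale (interval -0.19 to 0.11), and the 4OHT control differed from the EtOH control by -0.15 (edgeR adjusted p = 0.15). The latter was called with the replicate number as a block in all 3 replicates (-0.22, edgeR adjusted p = 0.00661) and when replicate 3 of the 4OHT control was left out (-0.22, edgeR adjusted p = 0.0321).

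*Immt*, the MICOS core subunit, had 252, 303 and 318 CPM in the EtOH control, 256, 296 and 305 CPM in Zbtb11 KO and 243, 261 and 283 CPM in the 4OHT control. The EtOH and KO libraries of a number stood close together, and the 4OHT control was the lowest in each number. Its log2 difference was -0.05 for Zbtb11 KO (interval -0.19 to 0.10) and -0.19 for the 4OHT control (edgeR adjusted p = 0.0792), each against the EtOH control. The second of these passed with the replicate block (edgeR adjusted p = 0.0211 for replicates 2 and 3 and 0.0358 for all 3) and without replicate 3 of the 4OHT control (edgeR adjusted p = 0.0297).

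*Phb* was the only gene of the 10 that passed the threshold in the main test. It had 133, 178 and 175 CPM in the EtOH control, 135, 181 and 179 CPM in Zbtb11 KO and 116, 139 and 156 CPM in the 4OHT control. Within each replicate number the 4OHT control was the lowest of the 3 libraries. On replicates 2 and 3 *Phb* fell by 0.26 ± 0.07 (SE) on the log2 scale in the 4OHT control against the EtOH control (edgeR adjusted p = 0.0258), and it was higher by 0.29 ± 0.07 in Zbtb11 KO than in the 4OHT control (edgeR adjusted p = 0.0145). These comparisons share the 4OHT control libraries. Against the EtOH control, Zbtb11 KO differed by 0.03 (interval -0.13 to 0.18). With all 3 replicates the differences were -0.24 and 0.27 and neither passed (edgeR adjusted p = 0.502 and 0.433), while with the replicate block in all 3 replicates both did (edgeR adjusted p = 0.00149 and 5.91e-04). Leaving out replicate 2 of the 4OHT control ended both calls (edgeR adjusted p = 0.103 and 0.0507). *Phb* shares stretches of 131 to 339 identical bases with *Fyb*, *Gm2245* and *Gm7666*, which had 25, 35 and 435 counts over all libraries against 28439 for *Phb*, so reads from these stretches cannot be placed with certainty. For *Immt* and *Mfn1* the same search found near-identical but inexact stretches in many other genes, some with more counts than *Immt* or *Mfn1*. The share of reads from those stretches was not examined.

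In all, 0 of the 10 genes were called between Zbtb11 KO and the EtOH control by edgeR on replicates 2 and 3, where 1.5% of all 14172 genes were called (191 lower and 21 higher). At an unadjusted p under 0.05 there was 1 of the 10 (*Opa1*), against 6.32% of all tested genes, and DESeq2 also called 0. None was called with all 3 replicates, where 0.899% of 14346 genes were called, or with the replicate block, where 2.27% (replicates 2 and 3) and 2.25% (all 3) were called. The median log2 difference of the 10 genes was -0.02, beside -0.001 for all tested genes. The intervals of the main test reached at most from -0.33 (*Opa1*) to 0.42 (*Fis1*), so that larger changes at 48 h lay outside them for every one of the 10. With all 3 replicates they reached from -0.36 (*Mfn2*) to 0.45 (*Fis1*). For the 4OHT control against the EtOH control 1 of the 10 was called, lower, beside 8.22% of all genes called lower and 17.1% called in either direction. For Zbtb11 KO against the 4OHT control 1 of the 10 was called, higher, beside 8.38% called higher and 18.7% in either direction. With all 3 replicates these comparisons called 0 and 0 of the 10, beside 4.06% and 6.45% of all genes. The replicate block on replicates 2 and 3 called 2 and 2, beside 27.6% and 29.5%, and on all 3 replicates 3 and 2, beside 33.6% and 34.9%. As the cells were measured in bulk, fewer cells of a type and less RNA per cell cannot be told apart.

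**Figure D2:**
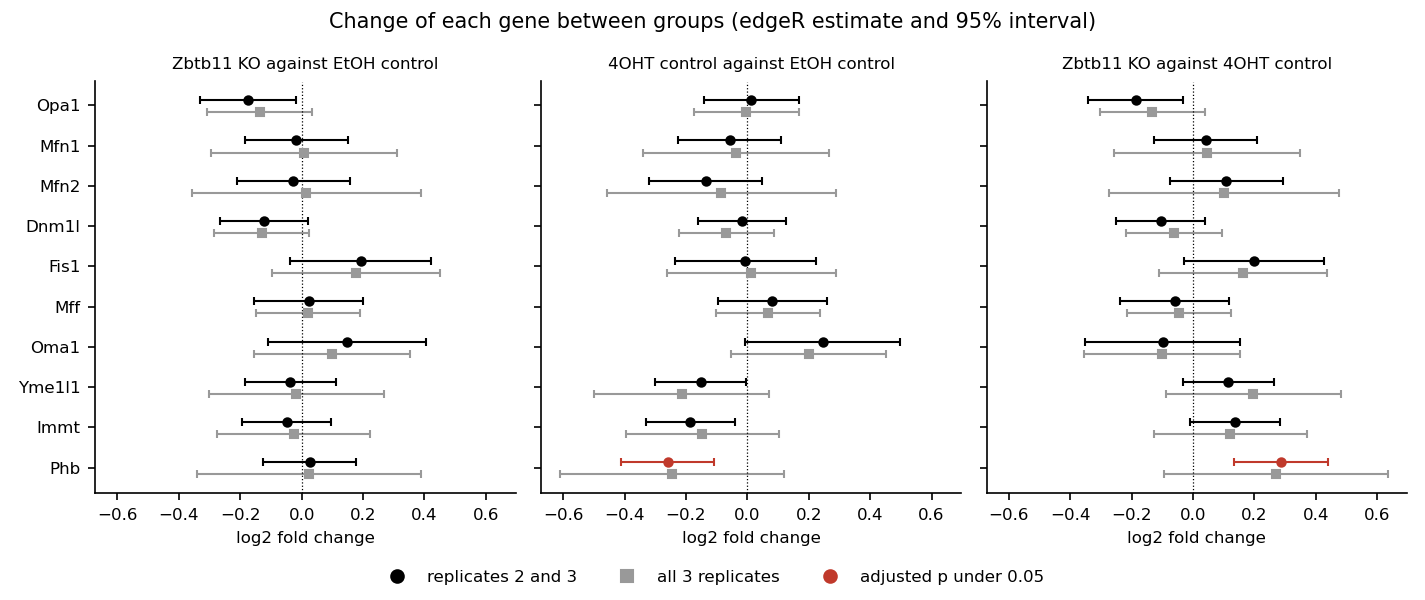
Log2 fold change (horizontal axis) of each gene in the 3 comparisons, with the edgeR estimate and its 95% interval for replicates 2 and 3 (circles) and for all 3 replicates (squares). Red marks an adjusted p under 0.05, which only Phb reached, at -0.26 and 0.29, and in the left panel all estimates lie between -0.17 and 0.19.

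Several of these genes differed more between replicate numbers than between groups. In 6 of the 10 genes (*Mfn1*, *Mfn2*, *Fis1*, *Yme1l1*, *Immt* and *Phb*) replicate 1 was lower than replicates 2 and 3 in all 3 groups, beside 29.4% of 14346 genes. In *Oma1* it was higher in all 3 groups, beside 30.0% of genes, and in *Opa1*, *Dnm1l* and *Mff* it was neither. On the log2 scale replicate 1 of *Phb* lay 0.407 below the mean of the others in the EtOH control, 0.420 below in Zbtb11 KO and 0.339 below in the 4OHT control. For *Mfn2* these differences were 0.495, 0.344 and 0.298. The values of a replicate number were therefore compared with each other, although it is not settled whether numbers 2 and 3 pair the samples. The same limit holds for the directions by replicate number given for single genes. Zbtb11 KO and the EtOH control differed in the same direction in all 3 replicate numbers in 5 genes, lower in *Opa1* and *Dnm1l* and higher in *Fis1*, *Oma1* and *Phb*, beside 35.9% of all genes. The 4OHT control and the EtOH control did so in 6 genes and Zbtb11 KO and the 4OHT control in 8, each beside 57.2% of all genes. The 3 libraries of Zbtb11 KO and those of the 4OHT control were separate in 0 of the 10, beside 22.9% of all genes. No test was made of these directions.

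The other genes of mitochondrial shape were looked at in the same way. A list of 44 further genes for fusion, fission, MICOS and cristae, inner membrane scaffold and proteases, and transport was compared with the 10, and 43 of them were tested, all but *Gdap1*. Between Zbtb11 KO and the EtOH control edgeR called 0 of the 43 on replicates 2 and 3 (3 replicates and DESeq2 also 0), with a median log2 difference of -0.02. With the replicate block 1 was called, *Bnip3*, a mitophagy receptor of the outer membrane that is named here after its values were seen. *Bnip3* had 202, 98.7 and 120 CPM in the EtOH control, 177, 58.4 and 84.6 CPM in Zbtb11 KO and 223, 84.2 and 131 CPM in the 4OHT control. Its replicate 1 was the highest in each group, and the KO library was below the EtOH library in each number. The log2 difference was -0.62 without the block (edgeR adjusted p = 0.310) and -0.63 with it (edgeR adjusted p = 5.77e-06).

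For the 4OHT control against the EtOH control 6 of the 43 (14%) were called, 2 higher and 4 lower, beside 17.1% of all tested genes. Between Zbtb11 KO and the 4OHT control 8 (18.6%) were called, 4 in each direction, beside 18.7%. These shares lay near those of all genes. *Phb2*, which forms the prohibitin ring with *Phb*, had 339, 471 and 471 CPM in the EtOH control, 349, 459 and 492 CPM in Zbtb11 KO and 215, 254 and 284 CPM in the 4OHT control. All 3 libraries of the 4OHT control lay below those of the other groups, and *Phb2* fell by 0.81 on the log2 scale against the EtOH control (edgeR adjusted p = 3.43e-05). *Phb2* also overlaps the small nucleolar RNA snoU89 by 155 bases. *Trak1*, an adaptor that ties mitochondria to motor proteins, had 36.9 and 34.5 CPM in replicates 2 and 3 of the EtOH control against 70.0 and 74.5 CPM in the 4OHT control. It rose by 1.02 on the log2 scale (edgeR adjusted p = 9.73e-06). The inner membrane protease subunit *Spg7* also rose (0.42), while the formin *Inf2* (-0.63), the rhomboid protease *Parl* (-0.36) and the ubiquitin ligase *March5* (-0.30) fell. Between Zbtb11 KO and the 4OHT control the same genes were called with opposite signs, as these comparisons share the 4OHT control, together with *Pgam5* (-0.34) and *Slc25a46* (-0.27), the latter named after its values were seen. With all 3 replicates, *Trak1*, *Spg7* and *Phb2* remained called in the former comparison, and these with *Inf2* in the latter.

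Zbtb11 peaks were counted at the promoters, from 2 kb upstream to 500 bases downstream of any annotated start of a gene. Of the 10 genes, 6 held a consensus peak, found by both the Zbtb11 antibody and FLAG-Zbtb11, namely *Opa1*, *Fis1*, *Mff*, *Oma1*, *Yme1l1* and *Phb*. Among the 14172 tested genes 31.3% did. The Zbtb11 antibody list held a peak at 8 of the 10 promoters, adding *Dnm1l* and *Immt*, beside 36.4% of tested genes. The FLAG-Zbtb11 list held a peak at 7, adding *Immt*, beside 36.8%. The FLAG control list from untagged cells held 0 at the 10 promoters, beside 0.268% of tested genes. *Immt* had a peak in both lists, at chr6:71780569-71782132 and chr6:71780171-71781817, but no entry in the consensus table, and so no coverage value. The nearest consensus peak lay 64426 bases from a start of *Mfn1* and 129766 bases from a start of *Mfn2*.

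Coverage at the consensus peaks was taken from the authors' table, as the mean of the 4 Zbtb11 antibody libraries. Peaks above 308.9, the upper quartile plus 1.5 interquartile ranges, are called Zbtb11-high here. The peak at the *Opa1* start, chr16:29578804-29580003, had 449, 641, 395 and 761 in the antibody libraries and 586, 563 and 291 in the FLAG-Zbtb11 libraries. Its mean of 562 ± 170 (SD, n = 4) ranked 398 of 7500 peaks, and its FLAG-Zbtb11 mean of 480.0 ± 164 (n = 3) ranked 399. Both ChIPs thus placed the *Opa1* peak alike. With *Phb* it was 1 of 2 Zbtb11-high peaks at the 10 promoters, beside 6.14% of tested genes.

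The peak at the *Phb* start, chr11:95527533-95528732, was placed very differently by the ChIPs. It had 269, 468, 311 and 358 in the antibody libraries (352 ± 85.8, rank 728) but 42.7, 74.6 and 59.3 in the FLAG-Zbtb11 libraries (58.9 ± 15.9, rank 4157). The lowest antibody library was above the highest FLAG-Zbtb11 library. The ratio of the means was 5.97, a value reached by 28 of the 7500 peaks (0.373%), and the median ratio over all peaks was 1.02. *Fis1* showed a similar case at its later annotated start. There the peak chr5:137437628-137438827, with its centre 9082 bases into the gene, had 162 ± 37.8 in the antibody libraries and 42.9 ± 10.2 in the FLAG-Zbtb11 libraries, a ratio of 3.78 reached by 1.65% of peaks. The peak at the main start of *Fis1*, chr5:137428562-137429761, had 45.2 ± 13.4 and 58.1 ± 7.40. The cause of the unequal ratios was not tested.

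With the antibody, the remaining peaks were near or below the median coverage of 71.3 over all peaks. The *Yme1l1* peak, chr2:23011359-23012558, had 82.4 ± 27.4 in the antibody libraries. It spans the divergent starts of *Yme1l1* and the kinase gene *Mastl*, 345 bases apart, with its centre 69 bases inside *Yme1l1*, so that it cannot be given to either gene alone. The *Oma1* peak, chr4:102985918-102987117, had 43.7 ± 6.74, and the *Mff* peak, chr1:82720959-82722158, had 27.6 ± 9.51. In these genes the FLAG-Zbtb11 means were the higher, at 103 ± 20.1, 73.9 ± 12.3 and 48.6 ± 5.68. The median FLAG-Zbtb11 coverage over all peaks was 65.6, which the *Yme1l1* and *Oma1* means exceeded and the *Mff* mean did not. Coverage within a library came in equal steps, and the peaks of the 6 genes held 14 to 698 such steps per library, with the *Mff* peak resting on as few as 14, which limits its precision.

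**Figure D3:**
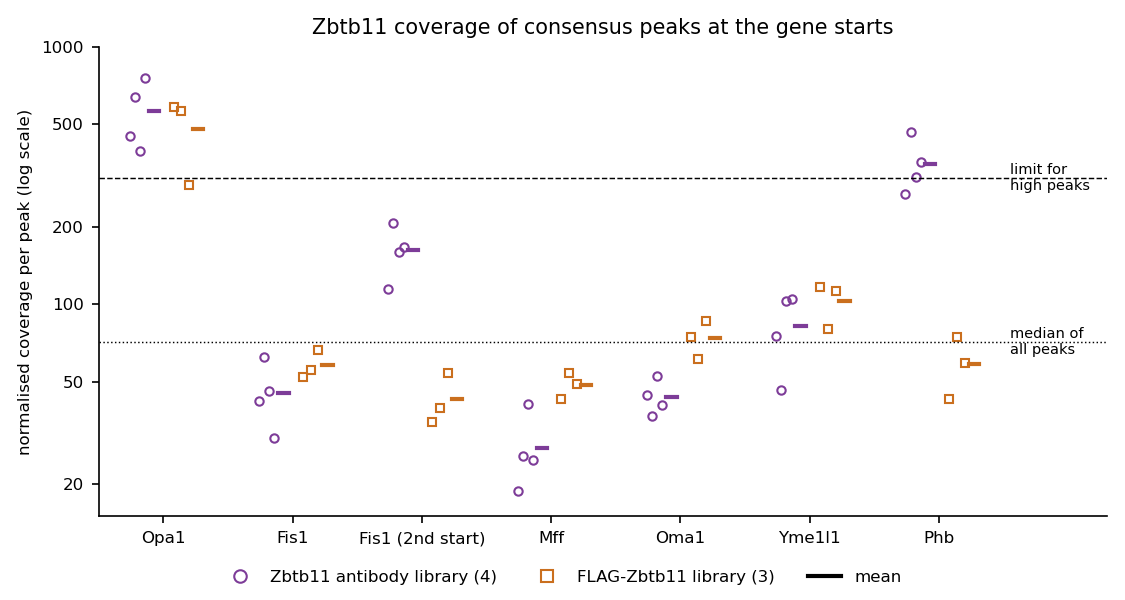
Normalised coverage (vertical axis, log scale) of the 7 consensus peaks at starts of the 10 genes in each Zbtb11 antibody library (circles) and FLAG-Zbtb11 library (squares), with the mean as a bar. The dotted line is the median of all peaks (71.3) and the dashed line the limit for Zbtb11-high peaks (308.9), both taken from the antibody libraries. Opa1 is high in both ChIPs, with means of 562 and 480.0, and Phb with the antibody alone, with means of 352 and 58.9.

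The strength of the promoter peak was set beside the change in Zbtb11 KO. Of the 870 tested genes with a Zbtb11-high promoter peak 175 (20.1%) were called lower in Zbtb11 KO against the EtOH control on replicates 2 and 3, against 0.168% of the 3570 genes with another consensus promoter peak. *Opa1* and *Phb* were among the 870 and were not called, with log2 differences of -0.17 and 0.03 where the median of the 870 genes was -0.06. The promoter peaks of the lowered genes had a median coverage of 670 (quartiles 585 and 752, 179 peaks). *Opa1*, at 562, was below their lower quartile and *Phb*, at 352, further below. Of the 43 other genes, 19 (44.2%) held a consensus promoter peak, beside 31.3% of tested genes, and 4 (9.3%) a Zbtb11-high peak, beside 6.14%. These 4, named here after their values were seen, were *Stoml2* (851), *Chchd2* (683), *Slc25a46* (531) and *Phb2* (404), and none was called in Zbtb11 KO against the EtOH control (log2 differences of -0.05, 0.08, -0.07 and 0.01).

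**Figure D4:**
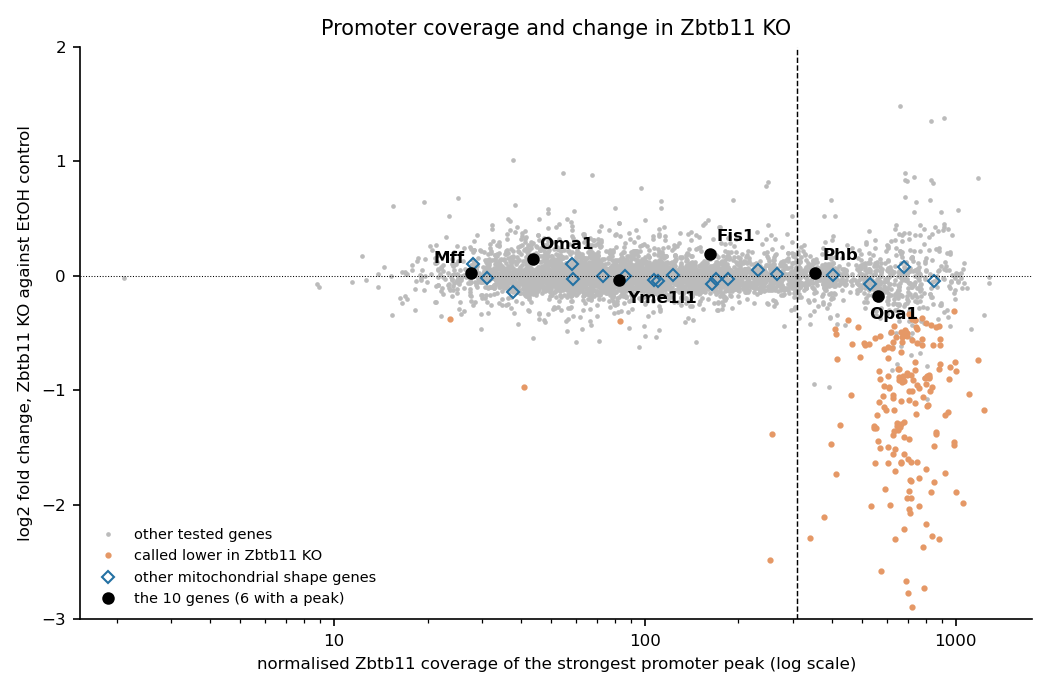
Log2 fold change in Zbtb11 KO against the EtOH control (vertical axis, replicates 2 and 3) against Zbtb11 coverage of the strongest promoter peak (horizontal axis, log scale) for the 4440 tested genes with a consensus promoter peak, of which 4 lie outside the plotted range. Black circles are Opa1, Fis1 (with the peak of its later start), Mff, Oma1, Yme1l1 and Phb, open diamonds other genes of mitochondrial shape, orange points genes called lower, and the dashed line marks 308.9. The black circles lie between -0.17 and 0.19 at every coverage.

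The letters under the peaks were read to see what the bound sites share. CCGGAAG was found in 39.1% of the 7500 consensus peaks and in 57.6% of the 857 Zbtb11-high peaks, and the NRF1 letters in 7.65% and 11.8%. Of the 7 peaks at the 10 genes, those of *Yme1l1* (4 matches), *Phb* (1) and both starts of *Fis1* (1 each) held CCGGAAG. Those of *Opa1*, *Mff* and *Oma1* held no exact match. The NRF1 letters were in the peaks of *Opa1*, *Oma1* and *Phb*, with 1 match each. The CCGGAAG sites are printed with 20 bases on each side, on the strand that reads CCGGAAG, to show the letters around the match.

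*Fis1* first start, chr5:137429127-137429133: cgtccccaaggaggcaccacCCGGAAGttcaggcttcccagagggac

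*Fis1* later start, chr5:137437966-137437972: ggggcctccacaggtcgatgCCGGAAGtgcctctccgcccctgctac

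*Yme1l1* a, chr2:23011575-23011581: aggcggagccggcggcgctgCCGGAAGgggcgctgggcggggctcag

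*Yme1l1* b, chr2:23011952-23011958: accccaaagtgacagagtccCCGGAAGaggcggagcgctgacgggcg

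*Yme1l1* c, chr2:23012006-23012012: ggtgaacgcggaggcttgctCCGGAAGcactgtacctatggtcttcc

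*Yme1l1* d, chr2:23012028-23012034: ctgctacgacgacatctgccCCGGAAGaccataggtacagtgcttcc

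*Phb*, chr11:95528003-95528009: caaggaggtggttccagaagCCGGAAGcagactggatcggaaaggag

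The coordinates are those of the capitals. In the *Yme1l1* peak 3 of the matches lay within 73 bases of the peak centre, and the matches c and d are on opposite strands. The *Phb* match lay 126 bases from the peak centre, before the window printed above, and that at the later start of *Fis1* 258 bases. The *Opa1* peak, the highest of these 7 in both ChIPs, held the NRF1 letters 37 bases from its centre and no exact CCGGAAG. The peaks of *Yme1l1* and of the main start of *Fis1*, with 4 matches and 1 match, had antibody coverage near and below the median. Letters in single peaks do not measure the binding of either factor. Using published ChIP-seq from mouse ESCs, the paper reports that nearly all Zbtb11-high peaks overlap peaks of GABPa, the DNA-binding subunit of GABP. At shared sites the paper found Zbtb11 signal correlated with that of GABPa, but not with that of NRF-1. By sequential ChIP at a panel of promoters it reports that Zbtb11 and GABPa bind at the same time. In Zbtb11 KO cells it reports impaired recruitment of GABPa, but not of NRF-1, at the shared sites of a panel.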

How the data were processed

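The RNA-seq values are raw counts per gene as deposited by the authors, who aligned the reads with STAR and counted them with HTSeq on the GENCODE annotation for mm9, without normalisation. For ChIP-seq the authors deposited peak lists and a table of coverage (signal). They aligned reads with Bowtie 1.1.2 to mm9, called peaks with MACS2 in the IDR pipeline, which keeps peaks that recur between replicates, and gave 1 list per ChIP, and normalised the coverage of 7500 consensus peaks with DiffBind. Input libraries were not analysed here. Of the reads, 25.3 to 31.6% were assigned to no gene and 0.79 to 0.91% were ambiguous, and these rows were left out.

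Counts were tested with edgeR 4.0.16 in R 4.3.3 (TMM scaling and the legacy quasi-likelihood F test, two-sided, with the 3 groups in a common fit). A gene was tested if 2 libraries, or 3 where all replicates entered, exceeded 1 CPM. Benjamini-Hochberg adjustment covered all tested genes at a threshold of 0.05, and intervals are 95% intervals. DESeq2 1.42.0 was an alternative. The study left out the replicate that lay apart in each group without giving its number, and replicate 1 was taken as that replicate from its distance to the others. P values measure the spread between these libraries. CPM are TMM-scaled, and RPKM used the merged exon length.

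The replicate number was checked as a pairing. After removal of group means, the correlation across genes was 0.43 to 0.82 in all 9 pairs of libraries that share a number. The pairs of replicate 1 had 0.791 to 0.82, and replicate 1 correlated negatively with every library of another number. Replicates 2 and 3 were not told apart in this way. Replicate 2 of the EtOH control had 0.526 with replicate 3 of the 4OHT control and 0.43 with its replicate 2. Whether numbers 2 and 3 pair the samples is thus not settled by these values, as removal of group means itself draws them together when replicate 1 lies apart. Blocked values are given where they change a call.

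The test was checked on simulated counts with known changes in 200 genes. With 2 libraries per group it found 45.0% of log2 changes of -0.5 and 52.5% of those of 0.5. For -1 and 1 it found 80% and 82.5%, and 15 of its 156 calls were false. With 3 libraries per group it found 7.5% and 10.0% at -0.5 and 0.5, and 5 of 97 calls were false. A gene that was not called can therefore still have changed.

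Near-identical sequence was searched with blastn 2.17.0 and promoters were read from mm9 with samtools 1.23.1. The 10 genes, the list of 44 others and the markers were chosen with earlier results of these data known. All 10 genes are named, and of the others those called in any comparison, at most 6 per comparison with the largest change, besides the row that holds Zbtb11 and the markers. Genes outside this rule are marked as chosen after their values were seen.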

Additional observations from a re-analysis of the deposited data

How the results depend on the processing

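For the 10 genes, 17 alternatives to the test on replicates 2 and 3 were run, which gave 510 log2 differences. Where replicate number 2 or 3 was left out of every group, replicate 1 took its place, so that replicates 1 and 3 or 1 and 2 were fitted. Of these 454 kept direction and call, 12 lost a call (all Phb), 8 gained 1, and 36, in none of which the gene was called, changed sign with a size of at most 0.15. The 0 calls between Zbtb11 KO and the EtOH control held under every alternative.

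For the 4OHT control against the EtOH control, the count of 1 became 0 with all 3 replicates. With the replicate block it became 2 for replicates 2 and 3 (Immt and Phb) and 3 for all 3 replicates (these and Yme1l1). Leaving out 1 library or replicate number gave 0 to 3, with 0 without replicate 2 or 3 of the EtOH control or replicate 2 of the 4OHT control, and 3 without replicate 3 of the 4OHT control. Between Zbtb11 KO and the 4OHT control, the count of 1 became 0 with all 3 replicates and 2 with the block, Phb higher and Opa1 lower (-0.19, edgeR adjusted p = 0.0316) for replicates 2 and 3, and Phb and Yme1l1 higher (0.21 for Yme1l1, edgeR adjusted p = 0.00993) for all 3. Leaving out 1 gave 0 to 1. Without replicate 2 of the 4OHT control the 1 call was Opa1 (-0.26, edgeR adjusted p = 0.0257) in place of Phb, and without replicate 2 or 3 of Zbtb11 KO it was 0.

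Of the 43 other genes, the 0 calls between Zbtb11 KO and the EtOH control became 1 with the block (for 2 or 3 replicates) and with only the groups compared, and 0 to 1 on leaving out 1. For the 4OHT control against the EtOH control, 6 became 3 with all 3 replicates and 10 with the block (for 2 or 3 replicates), and 0 to 8 on leaving out 1. Between Zbtb11 KO and the 4OHT control, 8 became 4 with all 3 replicates and 12 with the block, for replicates 2 and 3 (5 higher and 7 lower) and for all 3 (6 in each direction), and 0 to 8 on leaving out 1, with 5 without replicate 2 or 3 of Zbtb11 KO and 0 without replicate number 2 or 3 in every group. The fits without replicate number 2 or 3 in every group include replicate 1, which stood apart, and they called few genes of any kind. Between Zbtb11 KO and the 4OHT control they called 14 genes higher and 68 lower (replicates 1 and 3), and 28 higher and 86 lower (replicates 1 and 2). The replicate block changed no other call of the 10 genes.

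The count of 6 promoters with a consensus peak did not change with other promoter widths. With 2 libraries per group the precision is that of the printed intervals, and the cause of the differences between alternatives was not tested.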
